A study of Mus musculus with 6 samples.

Results

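In the mouse embryonic lung, 915 regions near gene ends carried peaks of H3K27ac in epithelium and none in mesothelium. H3K27ac, the acetylation of lysine 27 on histone H3, is found at promoters and enhancers in use. The regions were chosen from the peaks of 4 H3K27ac libraries: overlapping or touching peaks were merged, and a region was kept where both epithelium libraries and neither mesothelium library had a peak and where it lay within 2 kb of either end of an annotated gene. They are 915 of the 132165 merged regions of chromosomes 1 to 19, X and Y and 20.9% of the 4384 regions with this pattern anywhere in the genome. Of the 23404 regions near gene ends, 3.91% had the epithelium-only pattern. That pattern is the choice itself, so the counts and levels below that set epithelium against mesothelium are descriptions, with no test, and 2 libraries against 2 would allow no exact p below 0.333.

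The lung epithelium grows from a tube of the foregut. Its identity rests on NKX2-1, FOXA, Grainyhead, Krüppel-like and Iroquois transcription factors, and its cells are held together by E-cadherin, claudins, occludin and desmosomes, which seal the airway surface. The mesothelium is the flat cell layer that covers the outside of the lung and shares some of these features, including keratins. A promoter carries H3K27ac around the start of a gene in use, while an acetylated region at the far end of a gene, or beside it, can also be an enhancer.

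The chromatin came from lungs of mouse embryos at E16.5, the age in days of embryonic development. CUT&RUN, in which an antibody guides a nuclease that releases the DNA around the mark, was run on sorted cells. Epithelial cells were gated as PDPN+ EPCAM+ and mesothelial cells as PDPN+ EPCAM-, and both as CD45-, CD31- and DAPI-, so the epithelium is the podoplanin-positive part of the lung epithelium. Pregnancies were from Myrf Fl/Fl matings, which give floxed alleles of the transcription factor gene Myrf in both sorted populations. No Cre is named, and wildtype is the word of the series text for the cells. Lungs were pooled, and nothing says that the replicates came from separate pools. Per the titles, epithelium replicates 1 and 2 were made from 100k and 200k cells and mesothelium replicates 1 and 2 from 25k and 100k. The protocol gives a narrower range. Another 2 libraries, with an IgG antibody on epithelial cells, were not analysed here.

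The epithelium lists held 47869 and 46632 peaks on these chromosomes in replicates 1 and 2, and the mesothelium lists 39006 and 41524. Read depth is not known from peak lists, and a list leaves out signal below the peak caller's limit, so a region without a mesothelium peak is not a region without acetylation. In sorted bulk cells, fewer cells that carry the mark and less of it per cell cannot be told apart.

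Epithelial markers were covered more in epithelium and mesothelial ones more in mesothelium. Summed over gene bodies and 2 kb flanks, peaks covered 136 and 143 kb of the 35 junction, polarity and keratin genes in epithelium replicates 1 and 2, against 52.7 and 29.5 kb in mesothelium replicates 1 and 2. The 15 mesothelial markers had 4.94 and 6.88 kb in epithelium, against 25.7 and 70.3 kb in mesothelium. Markers of other cells were low in the epithelium libraries. The 18 mesenchymal markers had 6.39 and 9.04 kb in epithelium, against 74.8 and 92.6 kb in mesothelium, and 12 and 11 of these genes had no epithelium peak. The 12 endothelial markers had 2.81 and 5.29 kb in epithelium, against 10.3 and 5.27 kb in mesothelium. Immune markers had 0 and 1.34 kb in epithelium, against 2.13 and 0 kb in mesothelium, for 11 genes.

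The start windows of claudin, occludin, tricellulin and FOXP4 genes are shown because both epithelium libraries had a peak on them and because they hold the E-box CAGGTG, which is set against all start windows further on. Each window runs 5′ to 3′ on the gene's strand, from 250 bases before the annotated start to 50 bases from it (RefSeq, GRCm38.p6, the assembly that mm10 names). Capitals mark CAGGTG or its reverse complement CACCTG. Cldn4 lies on the minus strand at chr5:134946885-134947184, Cldn7 on the plus strand at chr11:69965171-69965470, and the other 3 on the minus strand: Ocln at chr13:100552449-100552748, Marveld2 at chr13:100616895-100617194 and Foxp4 at chr17:47924583-47924882.
Cldn4: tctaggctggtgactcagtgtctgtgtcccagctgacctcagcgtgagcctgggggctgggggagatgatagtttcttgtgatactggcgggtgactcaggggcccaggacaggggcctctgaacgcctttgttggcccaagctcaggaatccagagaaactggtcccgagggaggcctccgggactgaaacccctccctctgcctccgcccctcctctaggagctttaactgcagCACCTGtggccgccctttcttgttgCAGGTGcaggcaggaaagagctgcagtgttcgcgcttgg
Cldn7: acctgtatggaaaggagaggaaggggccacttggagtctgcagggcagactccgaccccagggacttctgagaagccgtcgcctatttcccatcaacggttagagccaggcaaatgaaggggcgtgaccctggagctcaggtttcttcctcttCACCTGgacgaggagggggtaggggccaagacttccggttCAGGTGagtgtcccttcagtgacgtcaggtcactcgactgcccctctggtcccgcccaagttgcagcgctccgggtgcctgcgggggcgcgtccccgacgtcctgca
Ocln: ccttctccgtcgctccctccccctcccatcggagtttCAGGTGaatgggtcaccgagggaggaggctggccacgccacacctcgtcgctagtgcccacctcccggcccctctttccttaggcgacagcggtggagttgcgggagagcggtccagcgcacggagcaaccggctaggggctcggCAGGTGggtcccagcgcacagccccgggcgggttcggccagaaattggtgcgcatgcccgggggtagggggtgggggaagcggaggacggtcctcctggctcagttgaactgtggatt
Marveld2: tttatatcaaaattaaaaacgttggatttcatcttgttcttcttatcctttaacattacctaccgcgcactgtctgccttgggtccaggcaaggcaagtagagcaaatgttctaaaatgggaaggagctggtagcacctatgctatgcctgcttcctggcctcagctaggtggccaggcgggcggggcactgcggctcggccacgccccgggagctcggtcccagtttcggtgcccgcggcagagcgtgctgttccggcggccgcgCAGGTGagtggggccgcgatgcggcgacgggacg
Foxp4: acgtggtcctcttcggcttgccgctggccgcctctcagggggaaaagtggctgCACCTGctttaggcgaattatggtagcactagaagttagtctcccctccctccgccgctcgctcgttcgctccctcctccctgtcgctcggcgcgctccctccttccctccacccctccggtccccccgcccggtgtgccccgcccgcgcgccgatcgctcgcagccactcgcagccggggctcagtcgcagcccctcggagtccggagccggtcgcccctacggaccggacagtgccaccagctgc
With the start base counted as 0, the first base of the E-box lay at -14 and 11 in Cldn4, at -97 and -57 in Cldn7, at -213 and -68 in Ocln, at 16 in Marveld2 and at -197 in Foxp4. The Etv5 and Fgfr3 windows, which met the same rule, held none. CpG dinucleotides numbered 9 in the Cldn4 window and 33 in the Foxp4 window, the fewest and the most of these 5.

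Genes for lung epithelial transcription factors were looked up next to the epithelium-only regions, from a list drawn up, like those that follow, with earlier results of these libraries known, so that its count is a description and no independent evidence. Of 36 such genes, 10 (27.8%) had one within 2 kb of an end, against 2.7% of the 21887 coding genes, or 592. They were Foxa1, Foxa2, Grhl2, Klf5, Etv5, Irx1, Irx2, Nfib, Foxp2 and Foxp4. No gene of the list had a mesothelium-only region near an end, a pattern seen at 3.66% of coding genes, and nothing is read from that absence in a list of this size. When regions were chosen anew after dropping every peak whose −log10 q was under 2, with q the peak caller's adjusted p-value, 6 genes of the list had one, of 175 coding genes in all. Whether these 6 are among the 10 was not counted.

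Irx1 and Irx2 encode Iroquois homeodomain factors. The Irx1 region, chr13:71958804-71963306, lay 417 bp from the gene and was covered by peaks over 3803 and 4441 bp in epithelium replicates 1 and 2. Peaks covered 4.37 and 4.44 kb of the Irx1 gene and its 2 kb flanks in epithelium, against 0 and 0 kb in mesothelium. Both epithelium libraries were thus nearly equal and neither mesothelium library had a peak. Irx2 had a region at each end, chr13:72620448-72624792 and chr13:72633254-72638124, and its gene length under peaks was 9.13 and 5.56 kb in epithelium, against 0.509 and 0 kb in mesothelium.

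Klf5, a Krüppel-like factor gene, carried a 4880 bp region across a gene end at chr14:99297498-99302377. Its length under peaks was 7.42 and 6.64 kb in epithelium, against 1.03 and 0 kb in mesothelium, so the groups did not overlap. Length under peaks was higher in both epithelium than in both mesothelium libraries at 2610 of all 21887 coding genes (11.9%) and at 400 of the 592 (67.6%). The 592 were chosen by peaks that are part of these lengths, so nothing is read from that share. Etv5 encodes an ETS factor induced by FGF signalling at the growing tips of the airway. The region at its start, chr16:22437113-22440313, was covered over 3058 and 3003 bp in epithelium replicates 1 and 2. Etv5 had 13.3 and 9.89 kb under peaks in epithelium, against 0.885 and 0 kb in mesothelium.

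FOXA1 and FOXA2 are pioneer factors of foregut epithelium. At Foxa1 the region chr12:57546255-57549576 covered the start and was also within 2 kb of Ttc6. Foxa1 had 5.75 and 7.79 kb under peaks in epithelium, against 1.24 and 0 kb in mesothelium. The Foxa2 region, chr2:148048351-148049524, lay 1382 bp from the start side of the gene and was short, with 672 and 540 bp under peaks in epithelium replicates 1 and 2. Foxa2 as a whole had 4.83 and 6.06 kb in epithelium, against 0.424 and 0 kb in mesothelium.

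Grhl2, the Grainyhead gene for a regulator of epithelial junctions, had 14.5 and 16.9 kb under peaks in epithelium, against 6.48 and 0 kb in mesothelium. Its region, chr15:37230676-37234276, was covered over 3601 bp in epithelium replicate 1 and 855 bp in replicate 2, and the nearest mesothelium peak was 40.5 kb away. Foxp4, a forkhead repressor gene of the lung epithelium, had 8.04 and 11.6 kb in epithelium, against 0.575 and 0 kb in mesothelium. The region at its start, chr17:47920833-47924832, had only 573 bp under peaks in epithelium replicate 1 and 3765 bp in replicate 2.

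At Foxp2 and Nfib the region near the end was epithelium-only while both mesothelium libraries had peaks on the gene. At the other factor genes above, only mesothelium replicate 1 had any, and at Irx1 neither had. Foxp2, another forkhead gene of the airways, had 56.0 and 48.6 kb under peaks in epithelium, against 27.1 and 21.7 kb in mesothelium. Nfib, a nuclear factor I gene active in both lung epithelium and mesenchyme, had 58.7 and 37.4 kb in epithelium, against 76.4 and 55.8 kb in mesothelium. Both genes also had a region of all 4 libraries near an end, and the nearest mesothelium peaks lay 0.303 kb from the Foxp2 region and 0.590 kb from the Nfib region.

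The junction, polarity and keratin genes had the highest share of the lists of coding genes. Of 35 genes, 13 (37.1%) had an epithelium-only region near an end and none had a mesothelium-only one. The shares over all coding genes were 2.7% and 3.66%, and nothing is read from the absence of mesothelium-only ones in a list of this size. The 13 were Epcam, Cdh1, Cldn4, Cldn7, Ocln, Marveld2, Tjp3, Cgn, Crb3, Spint1, Prss8, Pkp2 and Pkp3. Regions chosen anew at a −log10 q of at least 2 lay near 6 genes of the list, of 175 coding genes in all. Epcam was also the marker of the epithelium gate, so its label and its region are not independent.

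Epcam encodes the adhesion molecule used for sorting. Its region, chr17:87635563-87639621, covered the gene start, with 2377 and 2755 bp under peaks and a peak −log10 q of 3.35 and 2.71 in epithelium replicates 1 and 2. Over the gene and flanks the length was 2.38 and 3.33 kb in epithelium, against 0 and 0 kb in mesothelium. Cdh1, the E-cadherin gene, had 18.1 and 25.6 kb in epithelium, against 7.12 and 0.436 kb in mesothelium. Its region lay at one gene end, chr8:106602878-106604739, and covered a small part of that length.

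Claudins, occludin and tricellulin form the strands of tight junctions. Cldn4 had 1.83 and 1.80 kb under peaks in epithelium, against 1.16 and 0 kb in mesothelium, and its region chr5:134945372-134948225 overlapped the start and lay within 2 kb of both ends of the short gene. Cldn7 had 0.467 and 0.523 kb in epithelium, against 0 and 0 kb in mesothelium, from 1 narrow region at its start, chr11:69964743-69965720. Ocln, the occludin gene, had 10.8 and 7.64 kb in epithelium, against 0 and 0.389 kb in mesothelium. The Ocln region at the start, chr13:100550329-100553453, was 39.6 kb from the nearest mesothelium peak. Marveld2, the tricellulin gene, shares its region chr13:100616427-100617924 with Rad17, a DNA damage checkpoint gene, and had 0.558 and 1.81 kb in epithelium, against 0.220 and 0.366 kb in mesothelium. Ocln was the longest of the 4 under epithelium peaks and Cldn7 the shortest in epithelium replicate 1.

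On the inner face of the junction, Tjp3 encodes the scaffold ZO-3 and Cgn encodes cingulin. Tjp3 had 1.55 and 2.64 kb under peaks in epithelium, against 0 and 0 kb in mesothelium, and its region also lay near Pip5k1c. Cgn had 4.73 and 2.04 kb in epithelium, against 1.72 and 0.863 kb in mesothelium. The Cgn region, chr3:94757265-94758670, lay 1399 bp beyond the 3′ end and had a −log10 q of 3.38 and 2.72, the highest lower value of the list. Crb3, a polarity gene of the Crumbs complex, had 1.50 and 3.01 kb in epithelium, against 0 and 0 kb in mesothelium, and its region was shared with Slc25a23.

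Spint1 and Prss8 encode a serine protease inhibitor and the membrane protease prostasin, which act on the same proteolytic axis of epithelia. Spint1 had 1.13 and 3.43 kb under peaks in epithelium, against 0 and 0 kb in mesothelium. Prss8 had 2.53 and 1.96 kb in epithelium, against 1.60 and 0 kb in mesothelium, with a mesothelium peak 0.716 kb from its region. Of the plakophilin genes of the desmosome, Pkp3 had 0.421 and 0.669 kb in epithelium, against 0 and 0 kb in mesothelium, and Pkp2 had 2.92 and 4.90 kb in epithelium, against 2.73 and 0.396 kb in mesothelium. The Pkp2 libraries of epithelium were above both mesothelium libraries by a small margin in epithelium replicate 1.

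**Figure D1:**
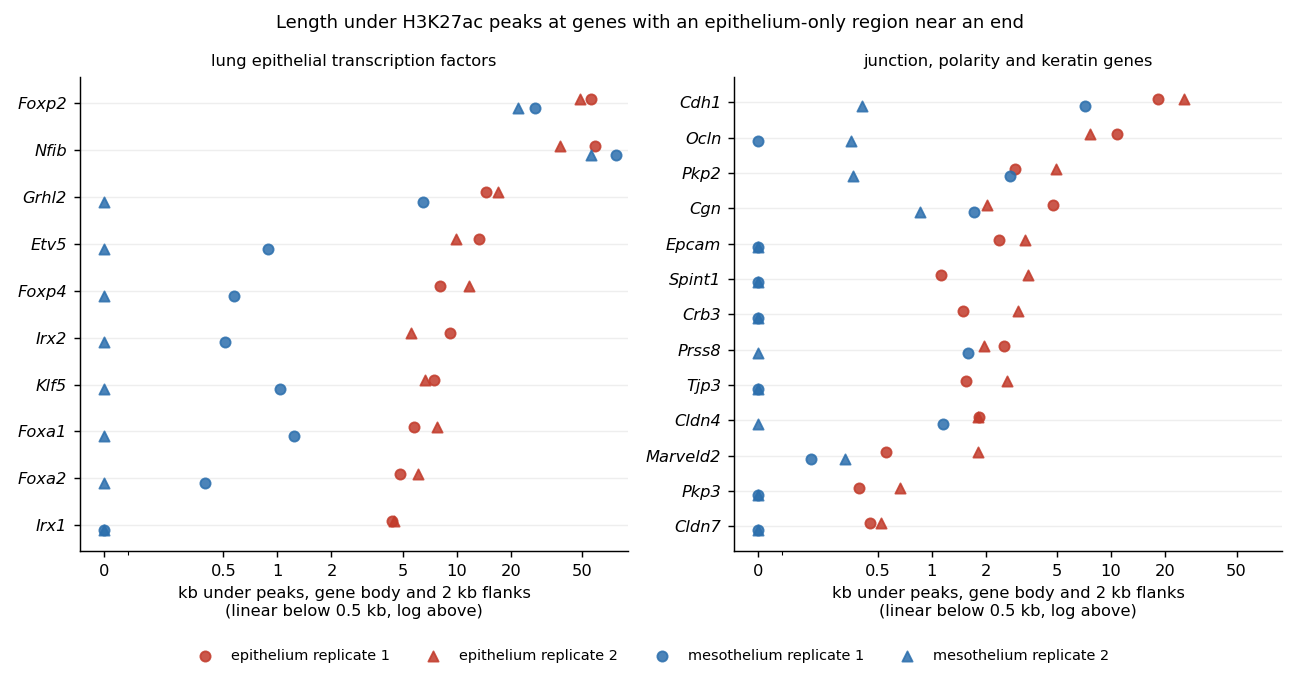
Length under H3K27ac peaks (kb, gene body and 2 kb flanks; axis linear below 0.5 kb and logarithmic above) in each library for the 10 transcription factor genes and the 13 junction, polarity and keratin genes with an epithelium-only region near an end. The epithelium libraries (red) lie above the mesothelium libraries (blue) at every gene shown except Nfib, where the epithelium had 58.7 and 37.4 kb against 76.4 and 55.8 kb for the mesothelium; these genes were chosen by peaks that are part of the length, and over all coding genes 11.9% have both epithelium libraries above both mesothelium libraries.

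Genes of the differentiated cell types of the lung came next. Of 18 alveolar type 2 and surfactant genes, 2 (11.1%) had an epithelium-only region, Abca3 and Muc1. Abca3 encodes the lipid transporter of lamellar bodies and had 3.29 and 2.98 kb under peaks in epithelium, against 0.337 and 0 kb in mesothelium. Muc1 encodes a membrane mucin and had 2.61 and 4.53 kb in epithelium, against 1.03 and 0 kb in mesothelium. Its region lay at the 3′ end and was also near Trim46. Of 16 alveolar type 1 genes 1 (6.25%), Emp2, a tetraspan membrane protein gene, had such a region. Peaks covered 10.04 and 0.564 kb of Emp2 in epithelium, against 1.90 and 1.20 kb in mesothelium, so its epithelium replicates disagreed and the groups overlapped. Of 14 airway genes 1 (7.14%), Cyp2f2, the cytochrome P450 gene of club cells, had a region, with 0.816 and 1.86 kb in epithelium, against 0 and 0 kb in mesothelium. The share over all coding genes was 2.7%, and a list of this size reaches a higher share with 1 gene. Without epithelium replicate 1 or epithelium replicate 2 the type 2 genes numbered 8 and 6 and the type 1 genes 9 and 9. In these settings 2971 and 2970 of the 21887 coding genes had such a region, against 592 with both libraries.

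Several defining genes of the epithelium missed the pattern through peaks of 1 mesothelium library. A region with both epithelium libraries and 1 mesothelium library lay near the transcription factor genes Elf3, Irx3, Irx5, Nkx2-1 and Prdm16 and the junction genes Cldn3, Esrp2, Krt19 and Spint2, as well as 2 alveolar type 2 genes (Ctsh and Sftpa1) and 2 alveolar type 1 genes (Cldn18 and Pdpn). At Nkx2-1, the master gene of lung identity, the region chr12:56515466-56541877 was 26.4 kb long, with 21.0 and 24.6 kb under peaks in epithelium, against 2.95 and 0 kb in mesothelium. The Irx5 region, chr8:92347580-92366286, had 10.6 and 18.3 kb in epithelium, against 0.802 and 0 kb in mesothelium. At Cldn18, an alveolar claudin gene, the region chr9:99700378-99716455 had 12.8 and 8.34 kb in epithelium, against 0.378 and 0 kb in mesothelium. Pdpn, whose product was the sort marker shared by both gates, had a region with 5.51 and 2.89 kb in epithelium, against 0.364 and 0 kb in mesothelium. All 4 of these regions, which were picked from the longer list by no set rule, were wider than the upper quartile of the 915, which was 2380.5 bp. So were those at Irx3, Prdm16, Cldn3, Krt19 and Spint2. The regions at Elf3 (1.79 kb), Sftpa1 (1.51 kb) and Ctsh (2.28 kb) were narrower, and Esrp2 had both kinds. A wider merged region has more bases on which a mesothelium peak can fall, so nothing is read from these widths. Over its whole gene and flanks Pdpn had 8.64 and 5.93 kb in epithelium, against 0.364 and 0 kb in mesothelium, although both gates took PDPN+ cells.

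Among signalling genes, 4 of 23 of the FGF pathway (17.4%) had an epithelium-only region, against 2.7% of all coding genes. These 4 were Fgf1, Fgfr3, Spry1 and Etv5. Fgf1 encodes a ligand and had 4.40 and 10.5 kb under peaks in epithelium, against 0.324 and 0.471 kb in mesothelium. Fgfr3 encodes a receptor and had 1.37 and 1.40 kb in epithelium, against 0.759 and 0 kb in mesothelium. Spry1 encodes an inhibitor of FGF receptor signalling that is itself induced by it, and had 1.52 and 4.91 kb in epithelium, against 0 and 0 kb in mesothelium. The Spry1 region, chr3:37639799-37646207, was covered by both epithelium libraries over only 16 bp, since their peaks lay side by side.

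WNT pathway genes had 3 of 43 (6.98%). Wnt7b, the epithelial ligand that acts on lung mesenchyme, had 12.9 and 13.2 kb under peaks in epithelium, against 0 and 1.50 kb in mesothelium, with a narrow region of 1005 bp at one gene end. The receptor genes were Fzd5, with 1.67 and 0.881 kb in epithelium, against 0.435 and 0 kb in mesothelium, and Fzd2, with 2.07 and 1.81 kb in epithelium, against 1.35 and 1.09 kb in mesothelium. Hedgehog genes had 1 of 15, Ptch1, and Notch genes 1 of 18, Rbpj, both at the 3′ end. Ptch1, the hedgehog receptor gene, had 15.4 and 15.8 kb in epithelium, against 6.88 and 9.41 kb in mesothelium. Rbpj, the DNA-binding effector of Notch, had 10.5 and 5.16 kb in epithelium, against 6.29 and 8.92 kb in mesothelium, so its groups overlapped. None of 31 TGF-beta and BMP genes and none of 14 ERBB genes had an epithelium-only region near an end. Beside the 2.7% of all coding genes, nothing is read from a count of 0 in lists of this size. The counts moved with each epithelium library left out: without replicate 1 and without replicate 2 they were 7 and 9 for WNT, 5 and 3 for Notch, 2 and 8 for TGF-beta and BMP and 1 and 3 for ERBB genes. In these settings all coding genes with such a region rose as well, from 592 to 2971 and 2970 of 21887. Regions chosen anew at a −log10 q of at least 2 lay near 175 coding genes in all. The list counts were then 1 for WNT, 1 for TGF-beta and BMP, and 0 for Notch, ERBB and FGF genes. Nothing about the pathways is read from these moves.

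Basement membrane and integrin genes had 3 of 16 (18.8%), against 2.7% of all coding genes. The count was 9 without epithelium replicate 1, where 2971 of 21887 coding genes had a region. It was 0 with regions chosen anew at a −log10 q of at least 2, which lay near 175 coding genes in all. Lama3, which encodes the alpha chain of epithelial laminin-332, had 26.8 and 27.9 kb under peaks in epithelium, against 6.09 and 2.56 kb in mesothelium, and its region was covered over 3636 and 3168 bp in epithelium replicates 1 and 2. Itga6, the integrin partner of that laminin, had 2.17 and 2.39 kb in epithelium, against 0 and 0 kb in mesothelium. Fras1, an extracellular matrix gene of epithelial basement membranes, had 38.4 and 46.8 kb in epithelium, against 15.9 and 22.1 kb in mesothelium. The chloride transporter genes Slc12a2 and Slc26a9 were 2 of 16 ion and water transport genes. Slc12a2 had 25.8 and 19.4 kb in epithelium, against 6.63 and 1.81 kb in mesothelium, and Slc26a9 had 2.12 and 1.64 kb in epithelium, against 0 and 0 kb in mesothelium. Of 21 lipid synthesis genes only Chpt1, a gene for phosphatidylcholine synthesis, had one, with 4.32 and 2.27 kb in epithelium, against 0.892 and 0 kb in mesothelium.

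Lists of other cell types had 0 or 1 gene each, and nothing is read from such counts beside the 2.7% of all coding genes. Msln, the mesothelin gene, was the only 1 of 15 mesothelial markers (6.67%) with an epithelium-only region, which lay 1842 bp away from it. Peaks covered 0.507 and 3.41 kb of Msln in epithelium, against 0.206 and 0.893 kb in mesothelium. Mesothelium-only regions lay near 3 of the 15, Wt1, Lrrn4 and Muc16. Vim, the vimentin gene, was the only 1 of 18 mesenchymal markers (5.56%), with 0.468 and 0.925 kb in epithelium, against 0 and 1.92 kb in mesothelium. At both genes the libraries of the groups overlapped. None of the 12 endothelial, 11 immune and 14 immediate early genes had one. Among the sort markers and the genes of MYRF and its partner TMEM98, Epcam was the only 1 of 6 with an epithelium-only region. Myrf had 1.49 and 1.25 kb under peaks in epithelium, against 0 and 1.53 kb in mesothelium, and Tmem98 had 1.37 and 1.21 kb in epithelium, against 2.66 and 3.46 kb in mesothelium. The genes of the antigens gated out were Ptprc (CD45), with 0 and 0.584 kb in epithelium, against 0 and 0 kb in mesothelium, and Pecam1 (CD31), with 0.325 and 0.923 kb in epithelium, against 4.36 and 1.52 kb in mesothelium.

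**Figure D2:**
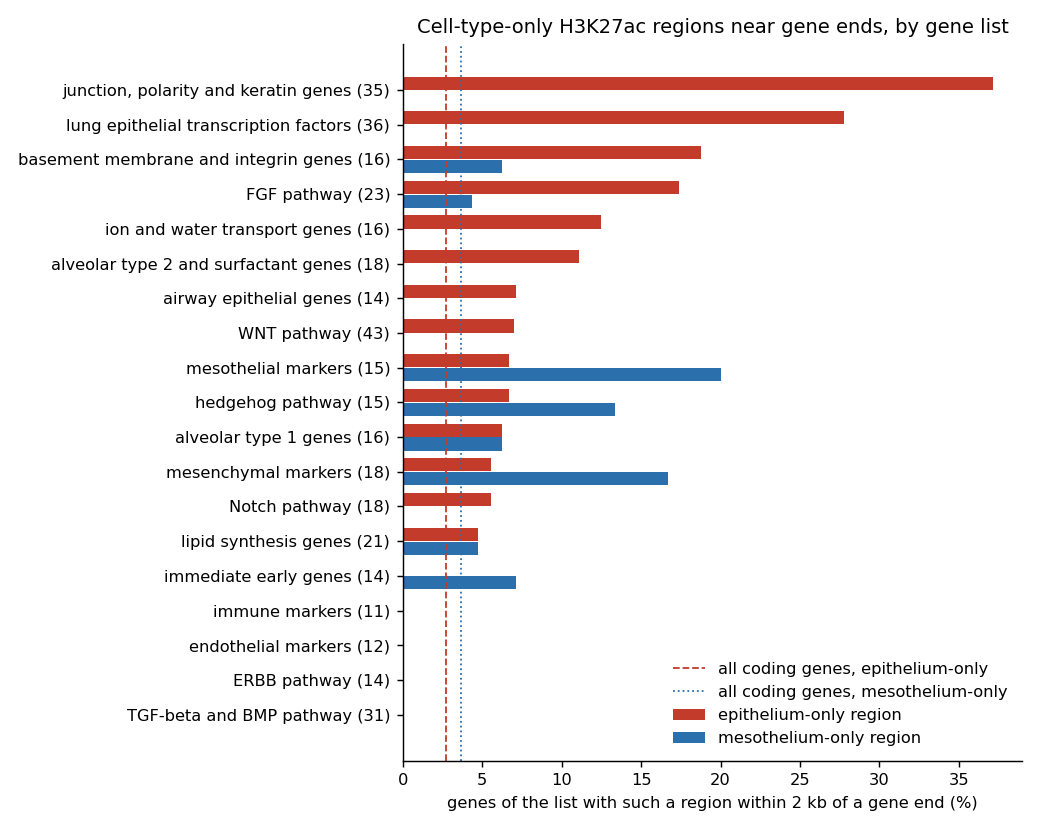
Share of each list's coding genes (x axis, percent; list sizes in brackets) with an epithelium-only region (red) or a mesothelium-only region (blue) within 2 kb of a gene end; the vertical lines give the shares of all coding genes, 2.7% and 3.66%. Junction, polarity and keratin genes (37.1%) and epithelial transcription factors (27.8%) have the longest red bars, while mesothelial markers have 6.67% red and 20.0% blue. Blue bars are missing from these 2 lists, but also from others such as the WNT, Notch, ERBB, endothelial and immune lists. Beside the 3.66% of all coding genes, nothing is read from a missing bar in lists of this size.

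Over all 592 coding genes, most were not free of mesothelium peaks. The median gene had 2.03 and 2.06 kb under peaks in epithelium replicates 1 and 2, against 0.540 and 0.394 kb in mesothelium replicates 1 and 2. No mesothelium library had a peak anywhere in the body and flanks of 175 genes (29.6%), and both had one at 275. Near the ends alone, 245 genes (41.4%) had a mesothelium peak in another region, 60 (10.1%) had a region of all 4 libraries and 5 had a mesothelium-only region. Shares of genes with or without a mesothelium peak are not given here over all coding genes, so it is not said whether these are high or low. Of the 592, 15 had 2 epithelium-only regions and none had 3. They include Epha2, a receptor of ephrins, with 8.63 and 4.85 kb under peaks in epithelium, against 0.377 and 2.00 kb in mesothelium, and Tead4, a partner of YAP, with 3.73 and 5.17 kb in epithelium, against 1.54 and 1.85 kb in mesothelium. These 2 genes were picked after their values were seen.

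The nearest mesothelium peak was a median of 7.24 kb away from an epithelium-only region, with quartiles of 2.13 and 18.6 kb. It lay within 1 kb of 113 regions (12.3%), within 10 kb of 532 (58.1%) and within 50 kb of 866 (94.6%). The 911 mesothelium-only regions near gene ends were a median of 7.61 kb from the nearest epithelium peak. Another epithelium-only region was within 50 kb of 363 (39.7%) of the epithelium-only regions, of 182 (20.0%) of the mesothelium-only and of 717 (29.9%) of the regions of all 4 libraries. A mesothelium-only region was within 50 kb of 156 (17.0%), 293 (32.2%, itself not counted) and 682 (28.4%) of the same 3 classes. These shares include neighbours at any distance from a gene end.

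At the regions the median −log10 q was 1.68 in epithelium replicate 1 and 1.71 in replicate 2, against 1.56 and 1.56 over all peaks of the same libraries. The median fold enrichment that the peak caller gave was 3.58 and 3.61, against 3.47 and 3.48 over all peaks. Both replicates reached a −log10 q of 2 at 112 regions (12.2%), both reached 3 at 8, and none reached 4. Merged regions had a median width of 1612 bp, with quartiles of 1078 and 2380.5 bp and a range of 362 to 9095 bp. Epithelium-only regions farther than 2 kb from gene ends were as wide, at a median of 1580 bp, mesothelium-only regions near gene ends had a median of 1493 bp, and those of all 4 libraries 2797.5 bp.

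The 2 epithelium replicates matched only loosely within a region. Each had a single peak at 883 regions (96.5%), with a median length under peaks of 1027 bp in replicate 1 and 1039 bp in replicate 2, against a median width per single peak of 580 and 571 bp over the whole lists. The bases covered in both replicates were a median of 33.3% of a region, and 2 regions had no common base because the peaks only touched. Lengths differed by over 2-fold between replicates at 392 regions (42.8%). Across the regions, which share the 2 libraries and their depth, Spearman's rho between replicates was 0.281 for the length under peaks and 0.161 for −log10 q.

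**Figure D3:**
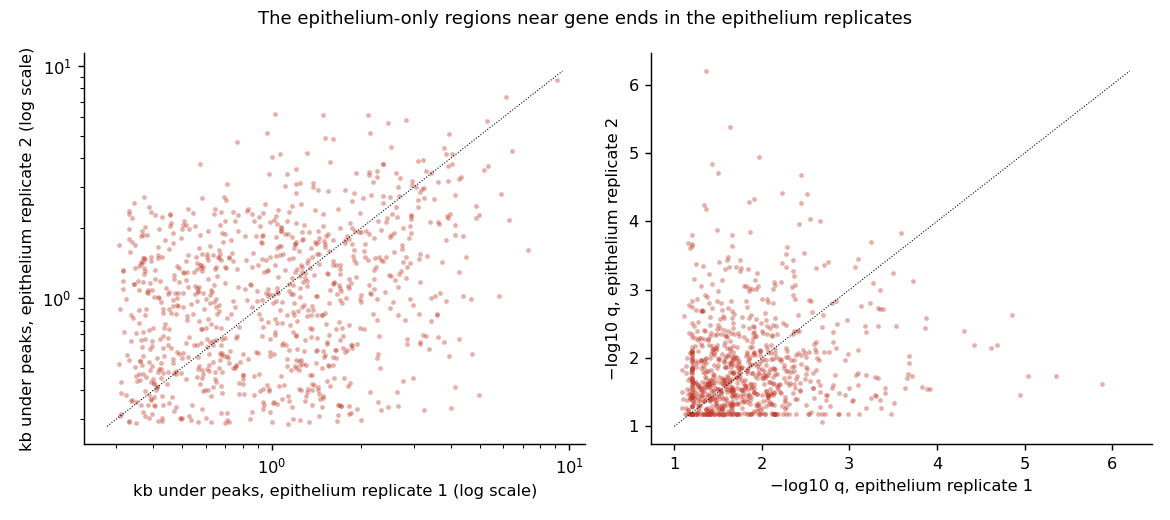
Each point is 1 of the 915 regions: length under peaks in kb (left, both axes logarithmic) and peak −log10 q (right) in epithelium replicate 1 (x) and replicate 2 (y), with the dotted line where they are equal. Points scatter widely about the line, with rho of 0.281 and 0.161, and only 112 regions have a −log10 q of at least 2 in both.

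How many regions the pattern takes by the labels can be set beside the patterns that cross them. Near gene ends, a peak in 1 epithelium and 1 mesothelium library and no other was found at 362, 517, 307 and 673 regions for the 4 possible pairs, a mean of 465 ± 165 (SD over the 4 pairs). The 915 epithelium-only and 911 mesothelium-only regions (3.89% of those near gene ends) were 1.97 and 1.96 times that mean. The pairs share libraries and are not independent, so the SD is no measure of error for these ratios. A peak in a single library, at 14778 regions, was the most frequent pattern, and 2398 regions had peaks in all 4 libraries.

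Near-end position was less frequent among epithelium-only regions than among the other shared patterns. Of all epithelium-only regions 20.9% lay within 2 kb of a gene end, against 26.4% of mesothelium-only regions, 26.3% of crossed ones and 56.0% of those of all 4 libraries, while regions of 1 library had 13.8%. The share by chromosome of near-end regions that were epithelium-only ran between 2.13% on X and 5.04% on chromosome 13, leaving out Y, which had 0 of 8 regions.

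The choice took either end of a gene, so the start could be looked at separately. Strand came from the RefSeq start windows, and those of chromosome 18, which holds 35 of the 915 regions, were not used here for the start share, the CpG ratios or the motifs. For 631 of the 915 regions a nearby gene had an annotated strand, and 413 of these (65.5%) lay within 2 kb of a start, while 218 (34.5%) lay near a 3′ end only. Only 27025 of 49943 genes had a strand, and the others were passed over. A region counted here as near a 3′ end only may thus lie at the start of a gene without strand, in every class. Of mesothelium-only regions 24.6% lay near a 3′ end only, as did 24.6% of crossed regions, 8.40% of the regions of all 4 libraries and 47.7% of those of 1 library. With regions chosen anew at a −log10 q of at least 2 the share of epithelium-only regions near a start was 77.0%. The gene end itself was overlapped by 431 of the 915 regions (47.1%). At starts this was more frequent, with 255 of 413 (61.7%), than at 3′ ends only, with 74 of 218 (33.9%). Widths were close, at medians of 1542 bp at starts and 1668.5 bp at 3′ ends.

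**Figure D4:**
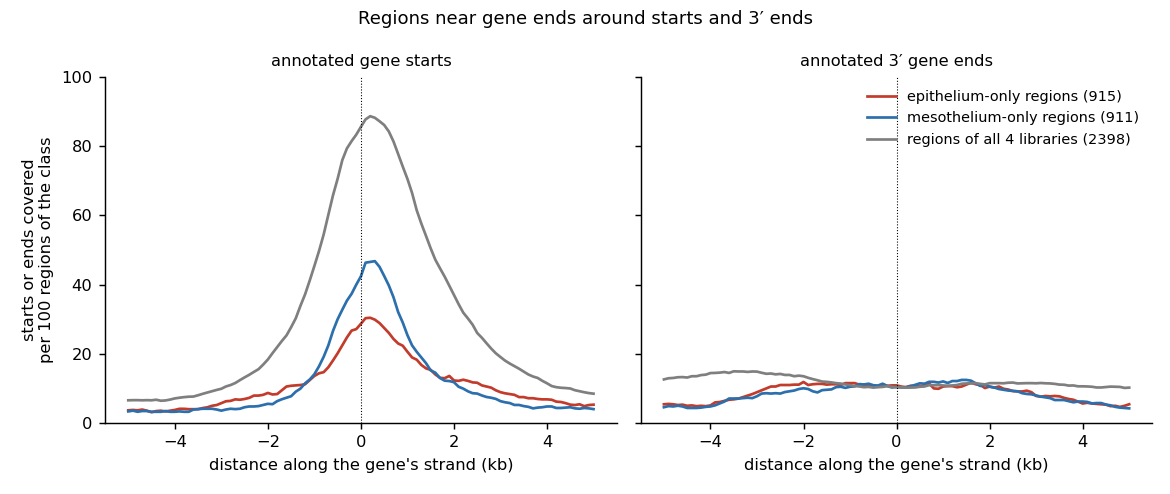
Annotated gene starts (left) and 3′ ends (right) covered by regions near gene ends, per 100 regions of each class (y), by distance along the gene's strand in kb (x, downstream positive). Regions with no strand given for a nearby gene stay in the divisor. A strand was given for 631 of 915 epithelium-only, 683 of 911 mesothelium-only and 1988 of 2398 regions of all 4 libraries, and the heights are not corrected for this. Epithelium-only regions (red) peak at 30.4 per 100 just after the start, below mesothelium-only regions (blue, 46.8) and those of all 4 libraries (grey, 88.7), while around 3′ ends the epithelium-only and mesothelium-only curves reach 11.8 and 12.4 per 100.

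Base composition, which the choice did not use, was compared between the start windows under epithelium-only regions and those with other peaks. A window of 300 bases was available for 344 starts of 308 genes under these regions, and both epithelium libraries had a peak on 189 of them. The ratio of observed to expected CpG, high in CpG islands, had a median of 0.562 on these 189 windows, against 0.781 on 698 windows with peaks of both mesothelium libraries only and 0.832 on 1325 with peaks of all 4. A ratio over 0.6 was found in 46.0%, 71.3% and 83.4% of these windows. Over all 32817 windows the median was 0.383, and on the 22921 without a peak it was 0.270. With coding genes alone the median was 0.694 under the regions and 0.711 where both epithelium libraries had a peak on the window. It was 0.796 for both mesothelium libraries only and 0.833 for all 4. Windows of lncRNA genes, 118 of the 344, had a median of 0.293. The epithelium windows had to overlap an epithelium-only region, while the other sets were drawn by the peaks on the window alone. A window with mesothelium peaks only can thus lie in a region with an epithelium peak elsewhere, so these sets are not matched. Windows can overlap or share a gene, so no test was made over them.

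The E-box CAGGTG, the hexamer bound by the repressors ZEB1, ZEB2, SNAI1 and SNAI2, was searched on both strands. It was present in 101 of the 344 windows under the regions (29.4%) and in 27.5% of the 189 with peaks of both epithelium libraries. Its share was 12.3% on windows with both mesothelium libraries only, 11.8% on those with all 4, 21.9% on those with no peak and 20.2% over all windows. Because the CpG ratio differed between these sets, the windows were also split at a ratio of 0.6, a split chosen after the shares were seen. At or below it the E-box was in 36.8% of windows under the regions and in 37.3% of those with peaks of both epithelium libraries, against 14.5% for mesothelium only, 16.4% for all 4 libraries, 22.2% for no peak and 21.9% over all windows. Above it the shares were 20.8% under the regions and 16.1% with peaks of both epithelium libraries, against 11.4%, 10.95%, 20.8% and 17.2% in the same order, so that with both epithelium peaks the share at high CpG was below that over all windows. At low CpG, coding genes alone gave 40.4% under the regions, against 22.2% over all such windows. With peaks of both epithelium libraries on the window, coding genes gave 36.6% (15 of 41). Leaving out 1 library brought the share under the regions to between 22.4%, without mesothelium replicate 2, and 26.5%, without mesothelium replicate 1. The sets of windows were drawn in unlike ways, as stated for the CpG ratio, so these shares are not a matched comparison. A match of letters is not a bound site.

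**Figure D5:**
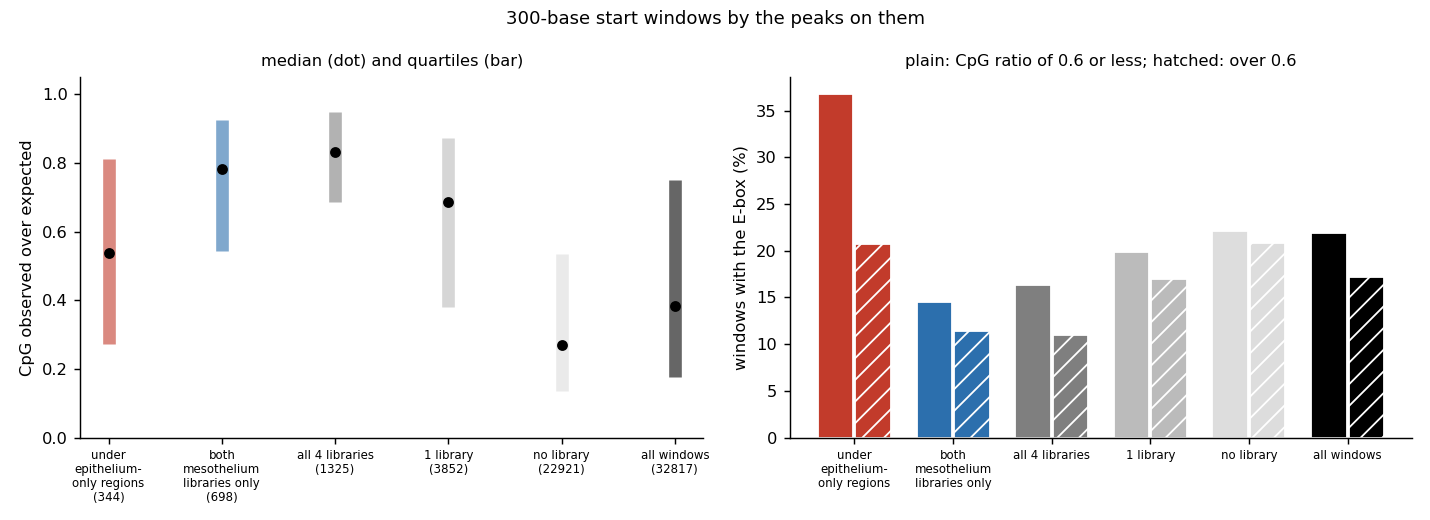
Left: ratio of observed to expected CpG in 300-base start windows (y) by the peaks on them (x, number of windows in brackets), with the median as a dot and the quartiles as a bar. The epithelium set was drawn by the region over the window and the other sets by the peaks on the window alone, so they are not matched. Right: share of windows with the E-box CAGGTG in percent (y), for CpG ratios of 0.6 or less (plain) and over 0.6 (hatched); windows under epithelium-only regions have 36.8% and 20.8% (37.3% and 16.1% for the part of them with peaks of both epithelium libraries, not drawn), those with both mesothelium libraries only 14.5% and 11.4%, and all windows 21.9% and 17.2%.

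The other 13 motifs stood on both sides of their share over all windows. Of those bound by epithelial factors, the NKX2-1 letters CAAGNG was in 47.1% of windows under the regions, against 46.1% of all windows, and the Grainyhead palindrome AACNNGTT in 4.65%, against 4.20%. The forkhead letters TGTTTAC were in 3.78%, against 3.65%, and TGTTTGC in 4.07%, against 5.06%. On the 189 windows with peaks of both epithelium libraries, NKX2-1 had 51.9% and Grainyhead 4.76%, TGTTTAC 4.76% and TGTTTGC 5.82%. TGTTTGC, in 11 of these windows, thus stood above its share over all windows there. The GC box GGGCGG of KLF and SP factors, which follows CpG content, was in 47.4% of windows under the regions, against 66.0% of those with both mesothelium libraries only and 35.6% of all. The ETS letters GGAAGT were in 30.2%, against 23.8% of all windows, and the TATA box TATAAA in 10.2%, against 13.6%. Most of all windows had no peak. ETS was in 27.5% of windows with both mesothelium libraries only and in 33.4% with all 4, and TATAAA in 5.59% and 4.68%. Against other windows with peaks, ETS was thus not set apart and TATAAA was not low. With regions chosen anew at a −log10 q of at least 2 the ETS share under them was 20.5%. Shares under the regions and over all windows were 15.4% and 14.7% for TEAD (GGAATG), 6.98% and 7.81% for AP-1 (TGANTCA), 32.6% and 37.4% for CCAAT and 13.7% and 14.1% for NFI (TTGGCA). They were 2.33% and 3.67% for SOX (ACAATGG) and 5.52% and 6.34% for YY1 (AAGATGG). Motifs with shared letters, such as both forkhead forms, were counted separately.

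Genes that make no protein are the larger part of the annotation, in which 21887 of 49943 genes are coding, and many regions lay near them. Of the 1089 genes within 2 kb, 592 were coding, 365 lncRNA genes, 93 pseudogenes, 22 microRNA genes and 15 small nuclear or nucleolar RNA genes. No coding gene was within 2 kb of 394 regions (43.1%), and 83 lay near 2 or more coding genes. These counts are not given for the other classes of regions, so nothing particular to the epithelium-only ones is read from them. The widest region, 9.095 kb at chr7:129657897-129666991, lay near the predicted lncRNA genes Gm33122, Gm33248 and Gm39094, and both replicates covered it almost whole, over 9.09 and 8.71 kb.

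Of 1228 microRNA genes 22 (1.79%) lay within 2 kb of a region, near 21 regions in all, and all 22 matched mature sequences. Of 32 epithelial and lung microRNA genes only Mir21a had a region, 679 bp upstream of it at chr11:86584837-86585591, also within 2 kb of the 3′ end of Vmp1. Its region was narrow, with 495 and 301 bp under peaks in epithelium replicates 1 and 2. The widest region near a microRNA gene lay upstream of Mir181d and Mir181c, at chr8:84179408-84184758, with 4511 and 1502 bp under peaks in replicates 1 and 2. That pair was picked after the values were seen. The mature 5p sequences are shown because miR-181c and miR-181d share the seed ACAUUCA, so 1 region lies beside 2 genes whose products carry the same seed. Capitals mark the seed, bases 2 to 8 (RefSeq, GRCm38.p6).
mmu-miR-21a-5p: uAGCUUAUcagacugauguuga
mmu-miR-181c-5p: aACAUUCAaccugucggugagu
mmu-miR-181d-5p: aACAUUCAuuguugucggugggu
The miR-21a seed is AGCUUAU.

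By the lower −log10 q of both replicates, the strongest regions lay near Gm3617, Gm40031, Tdg-ps2, Nek6, Myo5c, Zfp143, Cdc42bpg, 1500015L24Rik, Arnt2 and Maob, with lower values between 2.80 and 3.59. Myo5c, an unconventional myosin of epithelial cells, had a 7.28 kb region at its start, chr9:75232091-75239367, covered over 7.28 and 1.61 kb in epithelium replicates 1 and 2. Over its gene the length under peaks was 8.49 and 5.54 kb in epithelium, against 1.65 and 0 kb in mesothelium. Nek6, a mitotic kinase gene, had 24.5 and 22.7 kb in epithelium, against 11.9 and 8.03 kb in mesothelium, while the peaks at its region only touched. Arnt2, a bHLH-PAS factor gene, had 10.6 and 4.84 kb in epithelium, against 12.1 and 5.31 kb in mesothelium, so a strong epithelium-only region can lie at a gene with as much mesothelium signal. None of the coding genes among these 10 belongs to the lists above.

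After the lncRNA region, the widest were near Sema3e (7.68 kb), Mki67 (7.31 kb), Myo5c (7.28 kb), Gm34597 (6.61 kb), Sephs1 (6.43 kb), Spry1 (6.41 kb), Lpar6 (6.29 kb), Gm52313 (6.23 kb) and Lrrc8d (6.22 kb). Mki67, the gene of the proliferation marker Ki-67, was covered at its start over 6.15 and 7.31 kb in epithelium replicates 1 and 2. Its length under peaks was 7.74 and 7.66 kb in epithelium, against 0.673 and 1.14 kb in mesothelium. Sema3e, a secreted guidance factor gene, had 22.0 and 23.7 kb in epithelium, against 1.90 and 2.72 kb in mesothelium, although a mesothelium peak lay only 0.020 kb from its region. Sephs1, a selenophosphate synthetase gene, had 14.6 and 9.27 kb in epithelium, against 0.476 and 1.78 kb in mesothelium. These 3 genes were named for the width of regions that are part of these lengths.

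The limit of 2 kb cut through a continuous range of distances. The last regions inside it lay near Gfpt2 (1990 bp), Gm18343 (1997 bp) and Rassf4 (1999 bp), and the first outside near Gm24154 (2002 bp), Adgrg3 (2006 bp) and Zdhhc1 (2006 bp). Lengths under peaks on the inner side were 754 and 500 bp at Gfpt2, 427 and 379 bp at Gm18343 and 1144 and 1469 bp at Rassf4 in epithelium replicates 1 and 2. On the outer side they were 1146 and 1092 bp at Gm24154, 1442 and 1265 bp at Adgrg3 and 334 and 345 bp at Zdhhc1.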

How the data were processed

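H3K27ac CUT&RUN libraries were sequenced as paired-end reads, as the labels' protocols state. For the build mm10, the tools in the submitters' processing notes include MACS2 2.2.9.1 (a peak caller), Bowtie2 2.5.3 (an aligner) and bedtools 2.31.1, without roles. Neither the peak threshold nor the use of IgG as its control is given in the sources used here.

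The authors deposited 1 broad peak list per library, so replicates were not pooled. The deposited score is 10 times −log10 q, cut to a whole number, and stayed unused. The deposited ratio is a fold enrichment over the caller's background, and the deposited −log10 p and −log10 q rank and filter peaks. The lowest −log10 q was 1.00 to 1.03. Depth is unknown, so no interval or floor is given.

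Groups came from the titles. Overlapping or touching peaks on 21 chromosomes were merged, which left out 1 to 8 peaks per library, and a library was present with any base. Gene ends came from a RefSeq table of GRCm38.p6 (49943 genes) without strand. Strand and 300-base start windows came from RefSeq start windows, which held 79.9% of coding genes. All 408 symbols of the 21 lists matched. Members and lists were chosen with earlier results of these data known. No test was made, since the choice used the contrast and regions are not replicates. Genes were named by list (all up to 8, otherwise the 8 with the highest lower −log10 q, with the rest named as so few), by the 10 widest and 10 strongest regions, and at the 2 kb limit. A few genes are not reported here. Alternatives covered the peak threshold, equal peak numbers, presence, merging, distance, gene type and leaving out each library. Merging and presence were tested on simulated intervals. Python 3.11.15, pandas 2.3.3, numpy 2.4.6 and matplotlib 3.10.9 were used.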

Additional observations from a re-analysis of the deposited data

How the results depend on the processing

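The number of regions and their genes depended mainly on the peak threshold and on each library. With a −log10 q of at least 2 there were 243 regions, 175 coding genes, a share at starts of 77.0% (65.5% in the report), a median width of 1977 bp, 6 transcription factor genes, 6 junction genes and 0 mesothelial markers. The E-box share at a −log10 q of at least 2 was 24.7%. At 4 or more there were 5 regions, 4 coding genes, a share of 100%, a width of 2037 bp, 0 transcription factor, junction and mesothelial genes, and 0% of windows with the E-box. That 0% rests on the few windows under these 5 regions, so nothing is read from it. Counting genes within 1 kb gave a share at starts of 69.6% and 0 mesothelial markers, within 5 kb it gave 1425 regions and 1014 coding genes, and coding genes alone gave 521 regions. The median width was 1734 bp with equal numbers of peaks per library, 1782 bp where peaks had to cover 20% of a region, and 481 bp over the bases covered in both epithelium libraries. The E-box share was 36.8% at a CpG ratio of 0.6 or less and 20.8% above it, a split chosen after seeing the data. Without epithelium replicate 1 or epithelium replicate 2 there were 4944 and 4906 regions and 2971 and 2970 coding genes, and without mesothelium replicate 1 or mesothelium replicate 2 there were 1351 and 1587 regions and 904 and 1260 genes. Over these 4, the share at starts was 53.6% to 75.9%, the median width 551 bp (without epithelium replicate 1) to 1752 bp, and the E-box share 22.4% to 26.5%. Transcription factor genes numbered 10 to 20, with 20 without epithelium replicate 2 and 17 without mesothelium replicate 1. Junction genes numbered 15 to 23, with 23 and 20 without epithelium replicates 1 and 2, and mesothelial markers 1 to 3, with 3 without epithelium replicate 1 and 2 without mesothelium replicate 1. The causes were not tested. Leaving out a library removes a condition of the choice, which raises counts by construction. No paired analysis was possible because no test was made between the groups, and nothing in the labels ties replicates of the same number together.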
